A study of Mus musculus with 8 samples.

Results

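The control cultures of both experiments in the series were compared with each other. They made up 4 of the 8 bulk RNA-seq libraries and were chosen by their labels alone, 2 controls of the Arid1a knockout experiment (Arid1a controls) and 2 controls of the JQ1 inhibitor experiment (JQ1 controls). All 4 came from mouse bone marrow-derived monocytes (BMDMs) given M-CSF at 50 ng/ml together with RANKL at 100 ng/ml. The Arid1a controls carry the genotype label CONTROL, with no allele named, and the JQ1 controls the label wild type. In the methods the controls of inhibitor experiments were given vehicle, and no vehicle is named for the Arid1a controls. The marrow came from tibias and femurs of C57BL/6 mice, used regardless of sex according to the methods, and the methods give mice 4 to 6 weeks old for the marrow cultures. Beside them stood 2 Arid1a cKO libraries (LysM-Cre;Arid1afl/fl, in which Cre made by myeloid cells removes the floxed part of Arid1a) and 2 JQ1 libraries (wild-type cells given the BET inhibitor JQ1). The time of harvest was not given in the sources used here, and the study calls the libraries of the Arid1a experiment independent samples without saying whether animals or cultures set them apart, so a p-value measures only the spread between these libraries. Experiment, culture, vehicle, genotype label and sex (below) cannot be told apart, and each difference is therefore a description of these 2 pairs.

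M-CSF keeps monocytes and macrophages alive and dividing through its receptor CSF1R. RANKL binds RANK, and the signal runs through NF-kB and the AP-1 factor FOS to NFATc1, the master transcription factor of osteoclasts (OCs). Precursors then fuse through DC-STAMP and OC-STAMP and make the resorption machinery, an acid-secreting V-ATPase and the enzymes cathepsin K, TRAP and MMP9.

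Each control library held between 15108239 and 16176932 counted reads. The unit of level is CPM, in which each count is divided by the TMM-adjusted total of its library, and a difference is the log2 fold change of the Arid1a controls minus the JQ1 controls, so that a positive value is higher in the Arid1a controls. Each is followed by its standard error (SE) and by the p-value of edgeR's quasi-likelihood test, adjusted by the Benjamini-Hochberg method over the 11469 genes tested. Within a pair the log2 CPM of the libraries correlated at 0.9927 for the Arid1a controls and 0.9959 for the JQ1 controls, and between pairs at 0.9548 to 0.9584. The Arid1a controls were the more variable pair, with a biological coefficient of variation of 0.116 against 0.0506. Within the pairs 73 and 45 genes lay at least 2-fold apart. Between the pairs 5172 genes (45.1%) passed an adjusted p under 0.05, of which 2585 (22.5%) were higher in the Arid1a controls and 2587 (22.6%) higher in the JQ1 controls. Of these, 570 (4.97%) and 803 (7%) were also at least 2-fold apart. Counts of called list members below are to be read beside the 45.1%, 22.5% and 22.6% of all genes tested. For 74% of all genes tested the 4 values did not overlap between the pairs, so that a lack of overlap is the usual case here. The median difference over all genes was -0.01.

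The pairs differed in genes that mark the sex of the animals. The Y-linked gene Eif2s3y, which codes for a translation initiation subunit, had 1725 and 1510 reads in the Arid1a controls and 2 and 1 in the JQ1 controls. Over all 172 Y-linked genes in the tables the sums were 3620 and 3758 reads against 10 and 8. The Arid1a cKO libraries, at 4157 and 3939 Y-linked reads, lay with their own controls, and the JQ1 libraries, at 3 and 1, with theirs. The ratio of Eif2s3y reads between the control pairs was 1100, with a 95% counting interval from 376 to 5330. Ddx3y (an RNA helicase), Kdm5d (a histone demethylase) and Uty showed the same split. Among 6 X-linked genes known to escape silencing, a list made after the values were seen, 3 were called higher in the JQ1 controls and 1 in the Arid1a controls. Kdm6a, the X-linked partner of Uty, had 28.9 and 39.6 CPM in the Arid1a controls and 47.9 and 50.4 CPM in the JQ1 controls (-0.52, SE 0.15, adjusted p = 0.0212). The part of sex in the other differences was not tested.

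The JQ1 experiment also held adipocyte transcripts that the Arid1a experiment lacked. Car3, a carbonic anhydrase abundant in fat, had 0 reads in both Arid1a controls and 345 and 290 reads in the JQ1 controls, which is at least 208-fold higher against a floor of 3 reads over the pair. Lep (the hormone leptin) had 0 and 0 against 198 and 148 reads, at least 113-fold higher. Adipoq (the hormone adiponectin) had 0 and 0 against 79 and 67 reads. Of 20 adipocyte markers, a list also made after the values were seen, 10 had 0 reads in both Arid1a controls and none had 0 in both JQ1 controls. Of the 17 tested, 14 were higher in the JQ1 controls, and Lpl (0.31) and Pnpla2 (0.91), both lipases, were higher in the Arid1a controls. The whole list summed to 2138 and 1913 CPM in the Arid1a controls and 1792 and 1893 CPM in the JQ1 controls, most of it Lpl. With Lpl, Pnpla2 and Lipe left out, which macrophages also express, the remaining 17 summed to 7.86 and 9.01 CPM in the Arid1a controls, to 258 and 221 CPM in the JQ1 controls, and to 60.7 and 57.1 CPM in the JQ1-treated libraries. Fabp4, a fatty acid carrier that macrophages can also make, stood at 3.83 and 3.54 against 87.0 and 83.1 CPM (-4.52, SE 0.14, adjusted p = 3.79e-07). In bulk RNA, fewer cells of a type and less RNA per cell cannot be told apart.

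**Figure D1:**
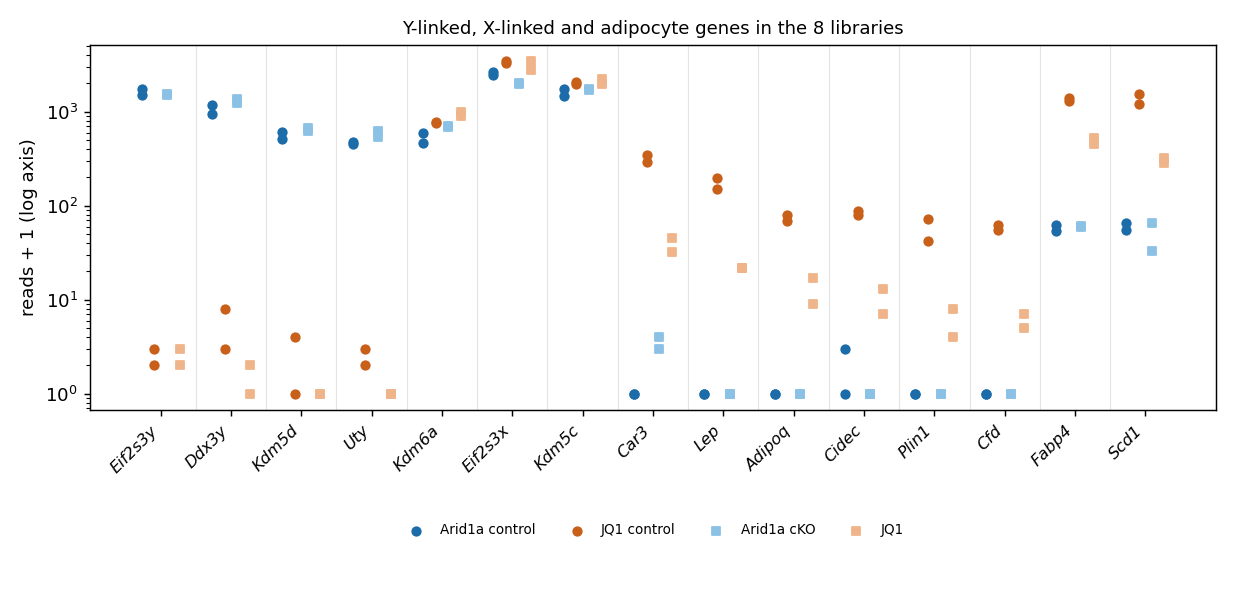
Reads plus 1 (log axis) of Y-linked, X-linked and adipocyte genes in each of the 8 libraries, 1 point per library. The 4 libraries of the Arid1a experiment hold at least 448 reads of each Y-linked gene and few or none of Car3, Lep and Adipoq, while the 4 libraries of the JQ1 experiment hold the reverse.

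Markers of B cells, erythroid cells, and T and NK cells were low in both pairs. B cell markers summed to between 0.503 and 1.89 CPM, erythroid markers to between 0.133 and 2.01 CPM, and T and NK cell markers to between 1.01 and 4.16 CPM, with Cd3d and Cd3e at 1 read or fewer in each control library. Stromal and osteoblast markers summed to 53.2 and 57.6 CPM in the Arid1a controls and 129 and 114 CPM in the JQ1 controls, and 8 of the 10 tested were higher in the JQ1 controls against 1 in the Arid1a controls. Cxcl12, a chemokine of marrow stroma, had 0.126 and 0.133 against 2.33 and 2.12 CPM (-4.02, SE 0.55, adjusted p = 0.000519). Defining osteoblast genes Bglap and Sp7 stayed at or below 0.200 CPM in all 4. Neutrophil markers summed to 159 and 166 CPM against 108 and 110 CPM, most of it Mmp8, the neutrophil collagenase, while Ly6g was at 0 reads in all 4. Of the 13 tested neutrophil markers 8 were higher in the JQ1 controls and 2 in the Arid1a controls. Dendritic cell markers summed to 178 and 132 CPM in the Arid1a controls and 286 and 313 CPM in the JQ1 controls, most of it Bst2, which interferon also induces, and 2 of the 3 tested were higher in the JQ1 controls. Megakaryocyte markers summed to 151 and 128 against 164 and 164 CPM, and of the 3 tested Pf4 was higher in the Arid1a controls (0.75) and Treml1 (-1.16) and Vwf (-1.67) higher in the JQ1 controls. The calls of Treml1 and of the dendritic cell marker Fscn1 (-1.50) were lost with DESeq2 (adjusted p = 0.0538 and 0.0675). The part of these cells in the other differences was not tested.

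The most abundant transcripts were largely shared. Ranked by FPKM (reads divided by gene length and library size, the scale on which genes can be compared), 42 of the top 50 genes were in the top 50 of both pairs, and 8 were in the list of 1 pair only. The shared genes took between 13.8% and 15.6% of the reads of each control library. Among them were 6 mitochondrially encoded genes and 5 ribosomal protein genes. The remaining 31 included Lyz2, Fth1 (the heavy chain of ferritin), Eef1a1 (a translation elongation factor), Psap and Actb. Lyz2, lysozyme of myeloid cells, ranked 2 in the Arid1a controls, at 10000 and 8266 FPKM, and 1 in the JQ1 controls, at 9541 and 10290 FPKM, and its values overlapped (-0.08, SE 0.11, adjusted p = 0.564). Cd68, a lysosomal membrane protein of macrophages, ranked 16 and 17, with 1196 and 1198 against 1317 and 1317 FPKM (-0.10, SE 0.08, adjusted p = 0.323). B2m, the light chain of MHC class I, ranked 9 and 10, with 2315 and 1949 against 2136 and 2330 FPKM, overlapping values (-0.03, SE 0.11, adjusted p = 0.825), but was called higher in the Arid1a controls with an offset for gene length (0.38, adjusted p = 0.000239).

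Of the 42 shared top genes, 14 were called higher in the Arid1a controls and 15 higher in the JQ1 controls. Of these, 4 were at least 2-fold apart, namely Psap, Ctsb, mt-Nd2 and Sh3bgrl3 (1.03, SE 0.10). Psap, which codes for the precursor of the saposins that help degrade sphingolipids, had 1797 and 1668 FPKM in the Arid1a controls and 3658 and 3721 FPKM in the JQ1 controls (-1.06, SE 0.09, adjusted p = 4.03e-05). Ctsb, the lysosomal protease cathepsin B, had 1236 and 1110 against 2427 and 2471 FPKM (-1.03, SE 0.09, adjusted p = 6.45e-05). Neither gene overlapped between the pairs. In the opposite direction, mt-Nd2 had 1957 and 2334 against 1032 and 1027 FPKM (1.09, SE 0.10, adjusted p = 6.89e-05), and Actb, cytoskeletal actin, had 3221 and 2877 against 1936 and 1884 FPKM (0.71, SE 0.09, adjusted p = 0.000419). Gpnmb, a glycoprotein of macrophages and OCs, had 1631 and 1688 against 2693 and 2712 FPKM (-0.67, SE 0.08, adjusted p = 0.000325). Spp1 (osteopontin) had 983 and 845 against 1352 and 1504 FPKM (-0.61, SE 0.11, adjusted p = 0.00179).

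Of the genes in the top 50 of 1 pair only, some differed widely between the pairs and others only crossed the cut. Arhgdia, Aldoa, Tpt1 and Capg were not called, and the others were. Arhgdia ranked 56 in the Arid1a controls and 45 in the JQ1 controls (-0.002, adjusted p = 0.99). Ctsl, the protease cathepsin L, ranked 44 in the Arid1a controls with 621 and 530 FPKM, and 219 in the JQ1 controls with 165 and 176 FPKM (1.79, SE 0.10). S100a11, a calcium-binding protein, ranked 39 and 167 (1.58, SE 0.10), and Hmga1, an architectural chromatin protein of dividing cells, ranked 35 and 141 (1.43, SE 0.08). Ctsd, cathepsin D, went the other way, ranking 54 and 16, with 572 and 492 against 1365 and 1422 FPKM (-1.36, SE 0.10). All genes named in this paragraph were picked after their values were seen.

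**Figure D2:**
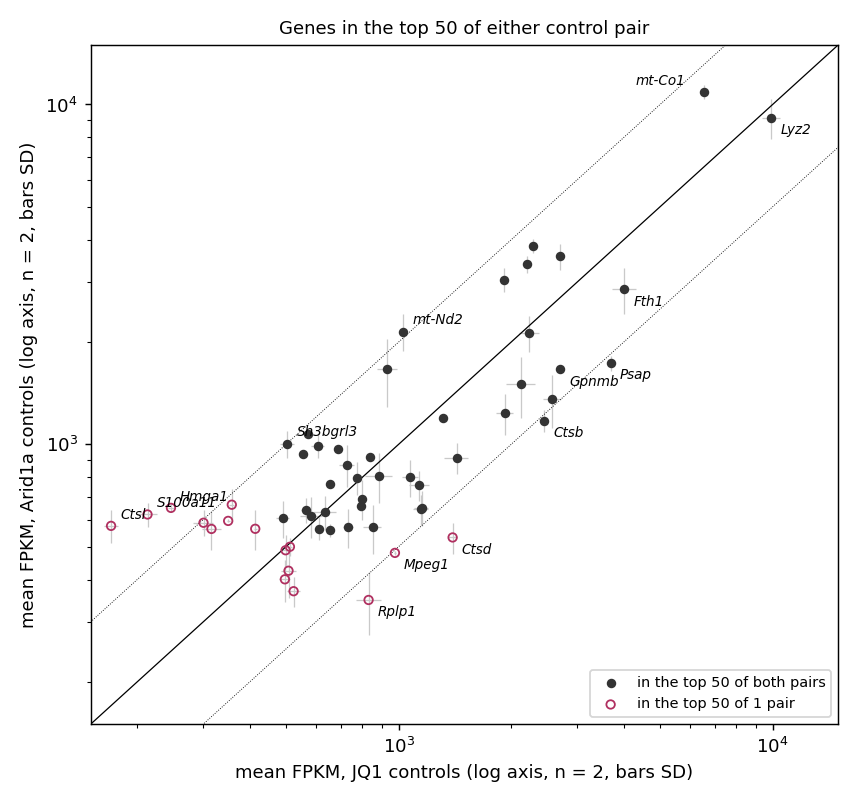
Mean FPKM of each gene in the top 50 of either control pair (log axes, n = 2 libraries per pair, bars SD), with the line of equality and dotted lines at 2-fold. Filled points are the 42 genes shared by both lists and open points the genes in the list of 1 pair, 8 per pair; Psap and Ctsb lie beyond the lower dotted line and mt-Nd2 just above the upper one.

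Of the receptors for the cytokines in the medium, that of RANKL was called and that of M-CSF was not. Tnfrsf11a, which codes for RANK, had 151 and 170 CPM in the Arid1a controls and 86.2 and 87.0 CPM in the JQ1 controls (0.89, SE 0.10, adjusted p = 0.000197), and the pairs did not overlap. Csf1r, the M-CSF receptor, had 1231 and 1310 against 1346 and 1277 CPM, overlapping values (-0.05, SE 0.09, adjusted p = 0.692). Further down the pathway the list was split. Of 26 tested genes of RANK and M-CSF receptor signalling, 8 were higher in the Arid1a controls, 7 higher in the JQ1 controls and 11 were not called, with a median of -0.02 that changed sign without Arid1a control 1 (0.06) or JQ1 control a (0.03) and was -0.12 without Arid1a control 2 and -0.06 without JQ1 control b. Nfkbia, the inhibitor that holds NF-kB in the cytoplasm and is itself an NF-kB target, had 297 and 266 against 178 and 180 CPM (0.65, SE 0.09, adjusted p = 0.000637). Trem2, a receptor that costimulates OC precursors through the adaptor DAP12, had 276 and 219 against 542 and 561 CPM (-1.16, SE 0.11, adjusted p = 0.000104). Tyrobp, which codes for DAP12, had 203 and 183 against 295 and 318 CPM (-0.66, SE 0.09, adjusted p = 0.000662), a call lost with an offset for gene length (-0.15, adjusted p = 0.117).

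OC transcription factors were more often higher in the Arid1a controls. Of 16 tested, 9 were higher in the Arid1a controls, 2 higher in the JQ1 controls and 5 were not called. The median of the 16 was 0.91, with 1.04 without Arid1a control 1 and 0.76 without Arid1a control 2. Jdp2, an AP-1 family factor that promotes OC differentiation, had 347 and 329 CPM in the Arid1a controls and 47.8 and 43.4 CPM in the JQ1 controls (2.89, SE 0.10, adjusted p = 7e-07). Fos, the AP-1 factor without which no OCs form, had 413 and 445 against 71.2 and 89.8 CPM (2.41, SE 0.12, adjusted p = 3.3e-06). Myc, which drives growth and is induced by RANKL, had 386 and 374 against 59.9 and 63.3 CPM (2.63, SE 0.09, adjusted p = 7e-07). For all 3 the lowest Arid1a control lay several-fold above the highest JQ1 control. Nfatc1 had 142 and 184 against 69.9 and 66.2 CPM (1.26, SE 0.13, adjusted p = 0.000129). Prdm1, which codes for BLIMP1, a repressor of OC inhibitors, had 17.4 and 22.6 against 3.21 and 4.17 CPM (2.44, SE 0.21, adjusted p = 5.34e-05). Fosl2 (1.25), Junb (1.31), Mitf (0.89) and Ppargc1b (0.93) were also higher in the Arid1a controls. Spi1, a panel gene outside this list of 16, codes for PU.1, the factor that opens the myeloid and OC programmes. It had 695 and 613 against 374 and 371 CPM (0.81, SE 0.09, adjusted p = 0.000202).

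The direction was not shared by every AP-1 gene. Fos and Jdp2 are neighbours on chromosome 12, 121754 bases apart in the coordinates of the files, and Batf, a further AP-1 gene, follows 46791 bases after Jdp2. Batf had 4.02 and 2.14 CPM in the Arid1a controls and 8.81 and 10.1 CPM in the JQ1 controls (-1.61, SE 0.28, adjusted p = 0.0018). Jun, the common partner of FOS, had 225 and 245 against 241 and 234 CPM and did not differ beyond the spread (adjusted p = 0.912). Tfec, a relative of MITF, was higher in the JQ1 controls (-0.41, SE 0.10, adjusted p = 0.0105), and Tfeb and Nfkb2 were not called.

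Of 16 tested genes of cell fusion, 8 were higher in the Arid1a controls and 3 higher in the JQ1 controls, with a median of 0.48. Ocstamp, which codes for OC-STAMP, had 8.86 and 7.47 CPM in the Arid1a controls and 0.378 and 0.385 CPM in the JQ1 controls (4.39, SE 0.32, adjusted p = 2.1e-05). Dcstamp had 7.73 and 8.21 against 4.91 and 5.19 CPM (0.66, SE 0.19, adjusted p = 0.0208), and Atp6v0d2, a V-ATPase subunit needed for fusion, had 29.9 and 32.2 against 18.3 and 22.9 CPM (0.59, SE 0.14, adjusted p = 0.0097). The pairs did not overlap in any of the 3, but the call of Dcstamp was lost with DESeq2 (adjusted p = 0.067) and without JQ1 control a or b (0.119 and 0.0786), and that of Atp6v0d2 without JQ1 control a (0.125). Cd44, an adhesion receptor of fusing cells, had 863 and 887 against 519 and 527 CPM (0.74, SE 0.08, adjusted p = 0.000164). Tspan13, a tetraspanin, was higher in the JQ1 controls, with 4.84 and 3.67 against 9.76 and 13.7 CPM (-1.46, SE 0.24, adjusted p = 0.00131).

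The resorption genes were divided between the pairs. Of 20 tested, 7 were higher in the Arid1a controls, 5 higher in the JQ1 controls and 8 were not called, with a median of 0.14 (0.03 without Arid1a control 2). Mmp9, the gelatinase of OCs, had 186 and 195 CPM in the Arid1a controls and 32.7 and 31.4 CPM in the JQ1 controls (2.57, SE 0.10, adjusted p = 9.98e-07). Acp5, which codes for TRAP, had 44.4 and 35.1 against 9.69 and 13.9 CPM (1.76, SE 0.19, adjusted p = 0.000161). Src, the kinase required for the ruffled border, had 42.9 and 46.2 against 11.2 and 10.2 CPM (2.06, SE 0.13, adjusted p = 9.64e-06). For Mmp9 and Src the gap between the pairs was several times the gap within them. For Acp5, which varied more within the pairs, the values did not overlap. Ctsk, cathepsin K, the main collagenase of OCs, was reversed, with 55.7 and 52.0 CPM in the Arid1a controls and 73.3 and 88.3 CPM in the JQ1 controls (-0.59, SE 0.12, adjusted p = 0.0041), a call lost without JQ1 control b (adjusted p = 0.0723). Also higher in the JQ1 controls were Clcn7 (-0.58) and Ostm1 (-0.76), which form the chloride transporter of lysosomes and the ruffled border, Plekhm1 (-0.49), which guides lysosome transport, and Tm4sf19 (-1.10).

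Of the genes of late OCs in the panel, Calcr, Oscar and Siglec15 were at or near the detection limit in both pairs. Calcr, the calcitonin receptor, had 0 reads in all 4 libraries. Oscar, an immune receptor of OCs, stood at 0.128 to 0.314 CPM, and Siglec15, a fusion receptor, at 0.189 to 0.513 CPM, and neither reached the filter for the test. Car2, the carbonic anhydrase that supplies protons, reached 3.33 and 3.07 CPM in the Arid1a controls and 1.32 and 1.47 CPM in the JQ1 controls (1.19, SE 0.31, adjusted p = 0.0133), a call lost without JQ1 control a (adjusted p = 0.0689).

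**Figure D3:**
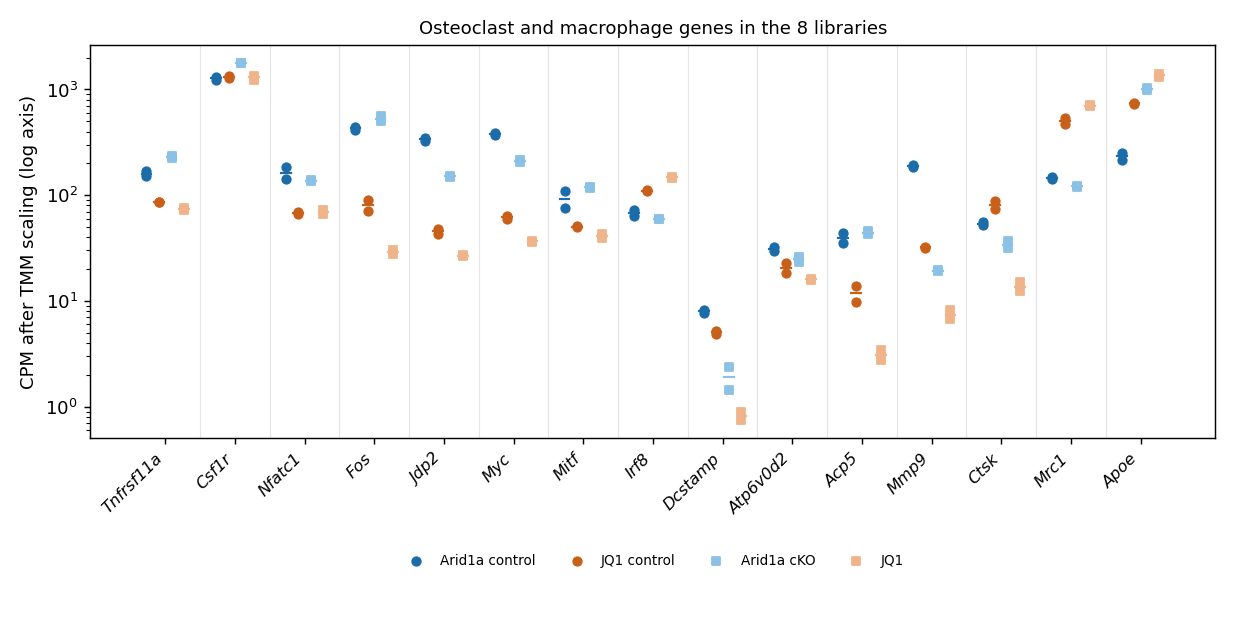
CPM (log axis) of 15 OC and macrophage genes in the 8 libraries, 1 point per library and a short line at the mean of each group (n = 2). In the Arid1a controls Fos, Jdp2, Myc, Acp5 and Mmp9 lie above the JQ1 controls, Ctsk, Irf8, Mrc1 and Apoe lie below them, and Csf1r overlaps.

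Inhibitors of OC formation did not move one way. Of 19 tested, 9 were higher in the Arid1a controls and 5 higher in the JQ1 controls, with a median of 0.24 (0.37 without Arid1a control 1). Irf8, a factor that blocks NFATc1 and is lost as OCs form, had 72.7 and 64.0 CPM in the Arid1a controls and 110 and 111 CPM in the JQ1 controls (-0.69, SE 0.10, adjusted p = 0.000835). Id2 and Id3, helix-loop-helix inhibitors, were also higher in the JQ1 controls (-1.65, SE 0.10, and -1.04, SE 0.12). Socs3, a feedback inhibitor of cytokine receptors, had 34.3 and 39.2 against 6.92 and 5.26 CPM (2.59, SE 0.17, adjusted p = 1.18e-05), and Arg1, the arginase of alternatively activated macrophages, had 12.8 and 16.1 against 0.252 and 1.15 CPM (4.35, SE 0.39, adjusted p = 6.1e-05).

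Macrophage markers were more often higher in the JQ1 controls, 12 of 26 tested against 8 in the Arid1a controls, with a median of -0.29 (-0.19 without Arid1a control 2). Mrc1, the mannose receptor of tissue macrophages, had 142 and 149 CPM in the Arid1a controls and 532 and 474 CPM in the JQ1 controls (-1.79, SE 0.10, adjusted p = 4.29e-06). Apoe, the lipid carrier, had 251 and 214 against 735 and 752 CPM (-1.68, SE 0.10, adjusted p = 6.99e-06). Mertk, a receptor for dying cells, had 11.6 and 17.0 against 47.5 and 42.6 CPM (-1.66, SE 0.18, adjusted p = 0.000145). None of these genes overlapped between the pairs. Adgre1, which codes for F4/80, was higher in the JQ1 controls too (-0.62, SE 0.08, adjusted p = 0.000419), as was Maf (-1.33, SE 0.10). Cx3cr1, the fractalkine receptor, went the other way, with 52.8 and 51.3 against 20.3 and 19.4 CPM (1.39, SE 0.12, adjusted p = 3.91e-05), and Itgam, which codes for CD11b, had 173 and 154 against 94.2 and 101 CPM (0.75, SE 0.10, adjusted p = 0.000503). Of 14 tested monocyte markers 7 were higher in the JQ1 controls and 3 in the Arid1a controls, 1 of them Vcan, the matrix proteoglycan versican, at 113 and 171 against 8.69 and 6.03 CPM (4.26, SE 0.24, adjusted p = 5.27e-06).

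DNA replication genes stood higher in the Arid1a controls, 15 of 22 tested against 1 in the JQ1 controls, with a median of 0.59. The 6 subunits of the MCM helicase, Mcm2 to Mcm7, were all higher in the Arid1a controls, by 0.63 to 0.89 on the log2 scale. Ccne2, the cyclin that starts S phase, had 109 and 109 CPM in the Arid1a controls and 53.2 and 53.1 CPM in the JQ1 controls (1.04, SE 0.10, adjusted p = 6.94e-05). Uhrf1, which maintains DNA methylation behind the fork, had 396 and 405 against 202 and 190 CPM (1.03, SE 0.09, adjusted p = 3.98e-05). Genes of G2 and mitosis did not follow as a list: of 20 tested, 6 were higher in the Arid1a controls and 4 higher in the JQ1 controls, with a median of 0.12. Mki67 had 951 and 1339 against 910 and 848 CPM (0.38, SE 0.14, adjusted p = 0.0575), a wide gap within the Arid1a pair, and was called with DESeq2 (adjusted p = 0.0265) and with an offset for gene length (0.00351). Cenpa, the centromere histone, was higher in the JQ1 controls (-0.87, SE 0.10, adjusted p = 0.000265), and Aurka, a spindle kinase, higher in the Arid1a controls (0.79, SE 0.09, adjusted p = 0.000238).

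Lysosome genes were mostly higher in the JQ1 controls, 19 of 23 tested against 1, with a median of -0.55, and of 15 V-ATPase genes in a list without Atp6v0d2, the subunit counted among the fusion genes and higher in the Arid1a controls, 11 were higher in the JQ1 controls against 0, with a median of -0.63. Many lysosome and V-ATPase genes carry an E-box that the MITF and TFE family binds, so the promoters of these lists were searched for the letters CACGTGA on either strand. Where a T precedes these letters the run is a palindrome that holds the motif on both strands, and a promoter was counted once however many matches it held. RefSeq promoters in the build GRCm38.p6, running from 250 bases before to 50 bases after the gene start, were at hand for 17 of the 23 lysosome genes and 11 of the 15 V-ATPase genes. The motif was found in 7 and 4 of these genes, or 41.18% and 36.36%, beside 7.08% of all tested genes with a promoter. Among all genes with a promoter at hand, tested or not, the share was 4.29%. Among genes called higher in the JQ1 controls it was 8.97%, and among those called higher in the Arid1a controls 6.15%. Both lists were searched because such genes are known to carry the motif, so their shares say nothing about the difference between the pairs. A part of the motif in that difference was not tested. A match describes the letters and is no evidence of binding. Promoters were printed only for matched genes called higher in the JQ1 controls, and not from every chromosome. The 4 of these with the largest differences are given 5′ to 3′ on the strand of the gene to show where the motif (capitals) lies. They span chr7:142387778-142388077 (minus strand), chrX:134600956-134601255 (minus), chr16:44139210-44139509 (minus) and chr8:105566015-105566314 (minus).
Ctsd: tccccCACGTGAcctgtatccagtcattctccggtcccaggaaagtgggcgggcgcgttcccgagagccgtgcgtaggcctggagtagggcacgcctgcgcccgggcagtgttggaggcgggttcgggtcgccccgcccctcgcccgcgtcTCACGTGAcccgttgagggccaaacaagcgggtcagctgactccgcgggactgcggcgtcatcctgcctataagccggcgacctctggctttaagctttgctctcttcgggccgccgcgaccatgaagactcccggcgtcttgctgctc
Gla: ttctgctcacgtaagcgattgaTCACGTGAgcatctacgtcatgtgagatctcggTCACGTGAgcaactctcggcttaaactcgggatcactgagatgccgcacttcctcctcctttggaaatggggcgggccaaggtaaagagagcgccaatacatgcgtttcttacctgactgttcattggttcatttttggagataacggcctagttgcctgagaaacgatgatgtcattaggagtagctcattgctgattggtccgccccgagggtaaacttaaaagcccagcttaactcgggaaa
Atp6v1a: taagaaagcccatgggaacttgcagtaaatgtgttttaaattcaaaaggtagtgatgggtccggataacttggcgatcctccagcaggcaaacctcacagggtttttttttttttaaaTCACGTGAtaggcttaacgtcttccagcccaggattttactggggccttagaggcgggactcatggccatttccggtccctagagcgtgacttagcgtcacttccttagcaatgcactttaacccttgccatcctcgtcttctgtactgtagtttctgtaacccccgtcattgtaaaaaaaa
Atp6v0d1: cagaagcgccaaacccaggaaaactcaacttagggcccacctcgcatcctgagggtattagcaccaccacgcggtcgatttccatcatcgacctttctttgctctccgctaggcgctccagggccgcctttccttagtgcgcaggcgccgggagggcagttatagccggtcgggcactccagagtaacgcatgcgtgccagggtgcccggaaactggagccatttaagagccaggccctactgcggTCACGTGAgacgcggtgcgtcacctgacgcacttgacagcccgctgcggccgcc

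Gla, the lysosomal alpha-galactosidase, whose promoter holds 2 palindromes, had 111 and 90.0 CPM in the Arid1a controls and 225 and 234 CPM in the JQ1 controls (-1.19, SE 0.11, adjusted p = 8.35e-05). Ctsd, whose promoter holds 1 palindrome and 1 single-strand match, had 1367 and 1166 against 3164 and 3317 CPM (-1.36, SE 0.10, adjusted p = 2.25e-05). Atp6v1a, the catalytic subunit of the proton pump, had 508 and 551 against 887 and 889 CPM (-0.75, SE 0.09, adjusted p = 0.000208). In all of them the pairs were apart. The largest V-ATPase difference was that of Atp6v0a1, a membrane subunit with 131 and 144 against 335 and 333 CPM (-1.28, SE 0.09, adjusted p = 1.73e-05). Ctsl was the lysosome gene that went the other way. Of the MITF family, Mitf itself was higher in the Arid1a controls, Tfec in the JQ1 controls, and Tfeb not called, as given above.

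Sterol synthesis followed the lysosome genes, with 17 of 21 tested genes higher in the JQ1 controls against 0 and a median of -0.67. Insig1, the sterol sensor that restrains SREBP, had 39.5 and 36.2 CPM in the Arid1a controls and 111 and 104 CPM in the JQ1 controls (-1.50, SE 0.11, adjusted p = 1.66e-05). Hmgcs1, an early enzyme of the pathway, had 27.2 and 24.4 against 73.7 and 61.2 CPM (-1.39, SE 0.13, adjusted p = 8.1e-05). MHC class II genes were higher in the JQ1 controls in 7 of 8 tested, among them H2-Aa at 1.57 and 1.33 against 10.5 and 11.7 CPM (-2.93, SE 0.23, adjusted p = 3.06e-05). The sum of the adipocyte markers without Lpl, Pnpla2 and Lipe was also larger in the JQ1 controls, and their part in these differences was not tested. Interferon response genes were divided, 9 of 53 higher in the Arid1a controls and 17 higher in the JQ1 controls. Of all genes tested, 22.5% and 22.6% were called in these directions. The median of the interferon list was -0.15, which became -0.31 without Arid1a control 1, -0.04 without Arid1a control 2 and -0.10 without JQ1 control a.

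All 10 tested mitochondrially encoded genes were higher in the Arid1a controls, with a median of 0.90. It was 1.25 with a gene length offset and 1.24 with GC content as well. Mitochondrial reads made up 3.0% and 3.3% of the Arid1a control libraries against 1.88% and 1.84% of the JQ1 control libraries. The nuclear genes of oxidative phosphorylation went the other way, with 12 of 24 higher in the JQ1 controls, 1 higher in the Arid1a controls and a median of -0.42. Cox5a, a subunit of cytochrome oxidase, had 24.0 and 20.4 against 51.1 and 55.6 CPM (-1.27, SE 0.13, adjusted p = 0.000109). This nuclear median was -0.26 with gene length and GC content as offsets, and also -0.26 without Arid1a control 2, against -0.56 without Arid1a control 1. Glycolysis and hypoxia genes leaned to the Arid1a controls, 8 of 22 against 1, among them Pkm (pyruvate kinase) at 0.53, Slc2a1 (the glucose transporter GLUT1) at 0.81 and Slc16a3 (a lactate exporter) at 0.77. Immediate-early and stress genes did so too, with 12 of 20 higher there and 5 higher in the JQ1 controls. Dusp1, a phosphatase of MAP kinases, had 87.6 and 85.5 against 25.1 and 27.2 CPM (1.73, SE 0.11, adjusted p = 8.09e-06), and Hspa1b, the inducible heat shock protein, had 52.8 and 51.0 against 3.59 and 3.40 CPM (3.89, SE 0.15, adjusted p = 8.05e-07). Atf3 and Ddit3, factors of the integrated stress response, were higher in the JQ1 controls (-1.84, SE 0.12, and -1.29, SE 0.19).

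**Figure D4:**
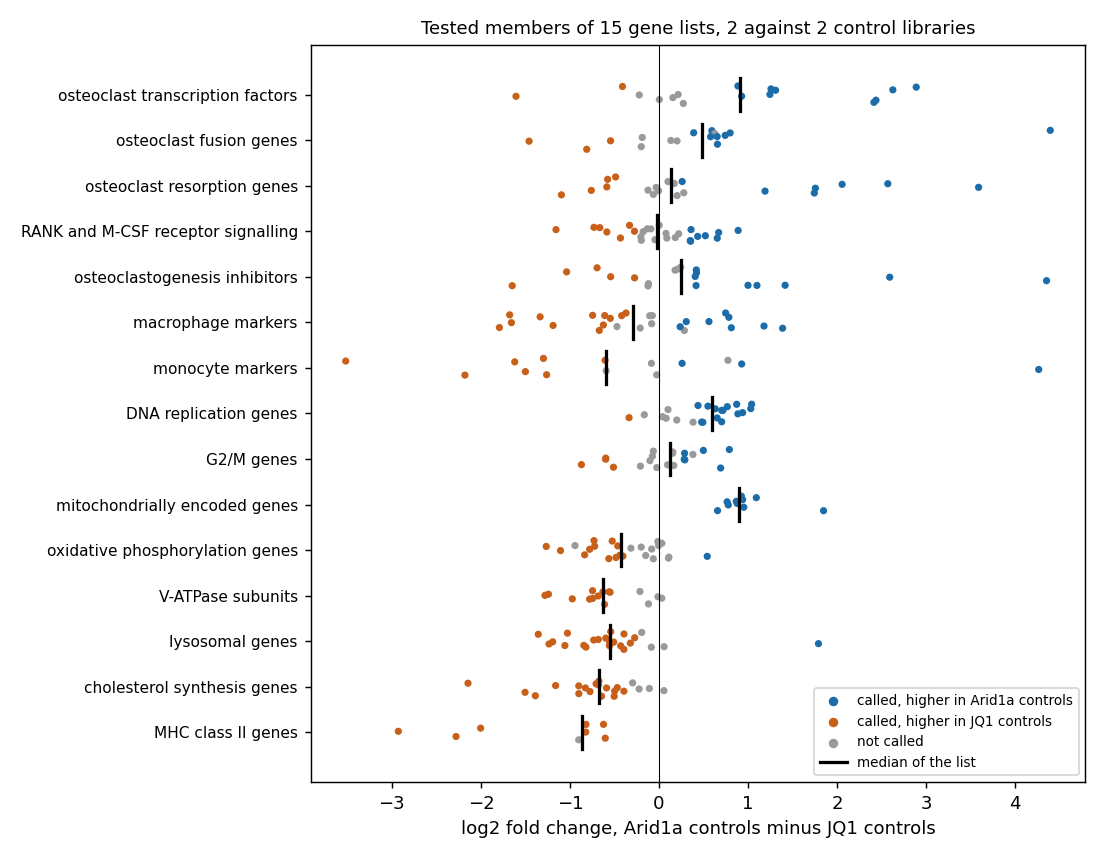
Log2 fold change of each tested member of 15 gene lists (1 point per gene, Arid1a controls minus JQ1 controls), coloured by call at an adjusted p under 0.05, with a black line at each list's median. OC transcription factors (median 0.91), DNA replication genes (0.59) and mitochondrially encoded genes (0.90) lie to the right, and V-ATPase subunits (-0.63), lysosome genes (-0.55) and sterol synthesis genes (-0.67) to the left.

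Beyond the lists, the named genes with the largest differences on the side of the Arid1a controls, after the 4 Y-linked genes, were led by Nptx1. This gene, which codes for a secreted pentraxin, had 159 and 197 CPM against 6.80 and 5.45 CPM (4.86, SE 0.17, adjusted p = 7e-07). Pgf, placental growth factor, had 52.4 and 43.6 against 2.39 and 2.95 CPM (4.17, SE 0.18, adjusted p = 1.63e-06). Epha2, an ephrin receptor, had 22.9 and 18.2 against 0.944 and 0.577 CPM (4.74, SE 0.27, adjusted p = 6.16e-06). Dpy19l3 (4.76), Camsap3 (4.03) and Rnf183 (3.96) completed the set with Arg1 and Vcan.

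Among the largest differences on the side of the JQ1 controls, after Car3 and Lep, was that of Pgc, which codes for pepsinogen C, a stomach protease, with 2 reads in the Arid1a controls together and 882 in the JQ1 controls (ratio 433, 95% counting interval 119 to 3580). Unlike the adipocyte genes, Pgc was as high in the JQ1-treated libraries, at 18.7 and 30.7 CPM against 25.4 and 30.7 CPM in the JQ1 controls. Mcoln3, a cation channel of endosomes and lysosomes, had 0.440 and 0.667 against 18.4 and 20.3 CPM (-5.12, SE 0.25, adjusted p = 2.72e-06). Rragd, a GTPase that ties lysosomes to mTORC1, had 2.89 and 1.60 against 34.1 and 33.3 CPM (-3.89, SE 0.22, adjusted p = 5.71e-06). Slc40a1, the iron exporter ferroportin, had 10.8 and 11.7 against 152 and 145 CPM (-3.72, SE 0.12, adjusted p = 3.79e-07). Gdf15, a stress-induced cytokine, had 4.59 and 4.67 against 51.9 and 52.0 CPM (-3.49, SE 0.14, adjusted p = 9.98e-07). Scd1, a fatty acid desaturase, Tent5c and Gpr162 showed differences of -4.50, -3.60 and -3.38.

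The controls were also set beside the treated libraries of their own experiments. Arid1a itself had 164 and 237 CPM in the Arid1a controls, 128 and 124 CPM in the Arid1a cKO libraries, and 166 and 145 CPM in the JQ1 controls, and the difference between the control pairs was not called (0.37, SE 0.16, adjusted p = 0.0874), though it was with an offset for gene length (0.36, adjusted p = 0.00765). Hexim1, a gene that rises when BET proteins are displaced, had 55.3 and 54.7 CPM in the JQ1 controls and 107 and 112 CPM in the JQ1 libraries, and 61.0 and 57.9 CPM in the Arid1a controls. Of the BAF subunits, the complex that ARID1A belongs to, 13 of 24 were higher in the Arid1a controls and 0 in the JQ1 controls, with a median of 0.36 (0.35 with gene length and GC content as offsets). Of 9 genes of BET proteins and P-TEFb 5 were higher in the Arid1a controls and 1 in the JQ1 controls.

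Within the Arid1a experiment 34.4% of genes were called between cKO and control, and within the JQ1 experiment 39.8% between JQ1 and control; each of these comparisons shares its controls with the one between the pairs. Mmp9 stood at 19.4 and 19.0 CPM in the cKO libraries, below the JQ1 controls at 32.7 and 31.4 CPM, and at 6.74 and 8.15 CPM with JQ1. Its own response was -3.29 (SE 0.11) after Arid1a loss, counted from the higher control, and -2.10 (SE 0.14) after JQ1, counted from the lower control. Jdp2 at 152 and 150 CPM in the cKO libraries remained above both JQ1 controls, and its responses were -1.15 (SE 0.09) and -0.77 (SE 0.10). Nfatc1 at 136 and 139 CPM in the cKO libraries also stood above both JQ1 controls, with responses of -0.23 (SE 0.12, adjusted p = 0.168) and 0.03 (SE 0.08, adjusted p = 0.789). Ctsk, which was higher in the JQ1 controls, changed by -0.65 (SE 0.12) and -2.56 (SE 0.10). Spp1 had 188 and 202 CPM in the cKO libraries and 3640 and 3593 CPM with JQ1.

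Gene length moved with the libraries. Between Arid1a control 2 and 1 the median log2 difference was -0.18 in the shortest of 4 equal bins of genes by length and 0.17 in the longest, against 0.07 and -0.06 between JQ1 control b and a. Between the pairs the medians of the bins by length lay between -0.09 and 0.02, and of 4 bins by GC content between -0.04 and 0.05. Gene length and GC content were used as offsets after the results were seen. With them, 9 OC transcription factors were higher in the Arid1a controls and 3 in the JQ1 controls, and 19 lysosome genes higher in the JQ1 controls. Other lists moved. Interferon response genes became 15 higher in the Arid1a controls and 18 in the JQ1 controls, and inhibitors of OC formation 12 and 5. The median of the neutrophil markers went from -1.26 to -0.75.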

How the data were processed

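Bulk RNA-seq libraries were made from mouse BMDMs under M-CSF and RANKL. Per the labels and methods, the authors trimmed reads with cutadapt, used HISAT2 for alignment to GRCm39 and HTSeq for counting, and deposited a count for each gene and library. Neither the strand setting nor the annotation release was given in the sources used here. The JQ1 table's columns carry codes that name a group and not a single sample, so its libraries are called a and b. Both tables were joined by gene ID (21958 genes).

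Counts were tested with edgeR 4.0.16 in R 4.3.3 (TMM factors, filterByExpr with a minimum count of 10, robust quasi-likelihood F test, Benjamini-Hochberg adjustment over 11469 genes), with 2 libraries against 2. The authors also deposited FPKM, and FPKM was recomputed here from the counts and the gene lengths in the files. On simulated data of the same size, 96% of genes changed by 1 on the log2 scale were recovered. Of those changed by 2, 100% were recovered, and 4.85% of the calls were false. The simulation gave every gene and both pairs 1 common dispersion and changed only a small share of genes. The real pairs differed in spread and in far more genes, so these shares do not carry over to the real comparison. Named genes were a panel, the 15 most abundant shared top genes, the 12 largest called differences in each direction at a mean of at least 10 CPM, and up to 4 members of each list by smallest p. Other members of the lists were named after their values were seen. The genes, lists and tests were chosen with earlier results of these data known. Some genes taken by these rules, 1 of the 12 largest differences toward the JQ1 controls among them, are not reported here. Alternatives were DESeq2 1.42.0, limma 3.58.1 (voom, and a trend on log2(FPKM + 1)), RLE and upper-quartile factors, other filters, each library left out, a replicate block, 1 fit over all 8 libraries, and offsets for gene length and GC content. Counting intervals (95%) and the floor of 3 reads cover counting error only.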

Additional observations from a re-analysis of the deposited data

How the results depend on the processing

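The 5172 genes called between the pairs numbered between 3297 and 6286 when each library was left out in turn, with 3381 without JQ1 control a and 3297 without JQ1 control b. Those fits leave 1 library in an arm, which is assumed to vary like the other pair. The 1373 genes called at least 2-fold apart ranged from 1267 to 1489 in the same fits, and the 42 shared top genes from 41 to 42. The count at least 2-fold apart was 577 with limma on log2(FPKM + 1) and 902 when only genes averaging 5 CPM or more in either pair were kept. With the thresholds of the study (a fold of at least 2 and an unadjusted p under 0.05), applied with DESeq2 in place of the DESeq its methods name, 1338 genes were called. With the replicate number as a block 4610 genes were called, 1378 of them at least 2-fold apart. The deviations of same-numbered libraries from their group means correlated at -0.218, and with crossed numbers, a pairing chosen after seeing the data, the block gave 6296 calls. Nothing in the labels links the numbers of the experiments. Offsets for GC content and gene length, also added after seeing the data, gave 5994 calls.

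Of 169 named genes refitted, 140 had the same direction and call under every alternative in which they were fitted. Some were missing from the fit of genes averaging 5 CPM or more and from limma on log2(FPKM + 1). Of the named genes that turned, Csf1r ranged from -0.085 to 0.003 when each library was left out, the highest without Arid1a control 1. Lyz2 ranged from -0.231 (without Arid1a control 1) to 0.058 (without Arid1a control 2), and was 0.146 with a gene length offset and 0.16 with GC content and length offsets. B2m ranged from -0.164 (without Arid1a control 1) to 0.097 (without Arid1a control 2), with 0.033 without JQ1 control b, and was 0.377 with the length offset and 0.395 with both offsets. Of the histone genes, H1f3 ranged from -0.146 (without JQ1 control a) to 1.082 (without JQ1 control b), and H1f2 was 0.024 with the length offset. The cause of these changes was not tested. With 2 libraries in each pair, leaving out 1 JQ1 control cost the calls of 11 (a) or 14 (b) named genes.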
